A study of Rattus norvegicus with 7 samples.

Results

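The 9 genes described here encode enzymes and partner proteins of the methionine cycle (Mtr, Mtrr, Mat2a, Mat2b, Ahcy, Ahcyl1 and Bhmt) and of transsulfuration (Cbs and Cth). They were chosen by name and found through the transcript accessions of the array, where 13 of 30367 probes and all 9 of 9 genes were matched, among 15437 named genes in all. The tissue was cerebellum of female Wistar rats, 21 days old, and its total RNA was hybridised to arrays with 1 colour. In the methyl donor deficiency group (MDD, n = 3), dams ate food deficient in folate and vitamin B12, with choline lowered, and in the control group (CTRL, n = 4), dams ate a standard diet. Both diets started 1 month before pregnancy and ended at weaning, at 21 days of age. Samples are called biological replicates in the labels, which do not name dams or litters, so p-values measure only the spread between these pups.

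The methionine cycle makes S-adenosylmethionine, the methyl donor of most cellular methylation, and regenerates methionine from the homocysteine that is left. Remethylation of homocysteine by methionine synthase takes its methyl group from folate and needs vitamin B12, while the betaine-dependent route starts from choline, so the 3 nutrients limited in the diet all feed this cycle. Transsulfuration removes homocysteine from the cycle and carries its sulfur to cysteine and glutathione. In brain, the betaine-dependent route and the last transsulfuration enzyme are known to be far less active than in liver.

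The upstream regions of Cbs, Mtr and Bhmt are shown, as those of an enzyme of transsulfuration and of the enzymes of both remethylation routes. Each is the 250 bases before the start given in the RefSeq promoter table, build GRCr8, read 5′ to 3′ along the gene, with matches to the motifs named below in capitals. For Mtr that start lies 73 bases inside the annotated gene, so the end of its region is within the gene, and for 4 of the 9 genes the start lies inside the gene.
Cbs, chr20:9733926-9734175, minus strand: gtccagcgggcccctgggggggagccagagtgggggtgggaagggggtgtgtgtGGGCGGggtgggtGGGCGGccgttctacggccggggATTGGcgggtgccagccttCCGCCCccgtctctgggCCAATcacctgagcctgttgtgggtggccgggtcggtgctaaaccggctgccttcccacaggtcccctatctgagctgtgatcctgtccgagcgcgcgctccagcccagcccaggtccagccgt
Mtr, chr17:62911528-62911777, plus strand: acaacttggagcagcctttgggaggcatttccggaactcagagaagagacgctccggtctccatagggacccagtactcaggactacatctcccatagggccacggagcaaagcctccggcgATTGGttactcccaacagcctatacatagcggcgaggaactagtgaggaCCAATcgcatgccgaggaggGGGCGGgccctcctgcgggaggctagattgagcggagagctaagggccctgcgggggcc
Bhmt, chr2:26614430-26614679, minus strand: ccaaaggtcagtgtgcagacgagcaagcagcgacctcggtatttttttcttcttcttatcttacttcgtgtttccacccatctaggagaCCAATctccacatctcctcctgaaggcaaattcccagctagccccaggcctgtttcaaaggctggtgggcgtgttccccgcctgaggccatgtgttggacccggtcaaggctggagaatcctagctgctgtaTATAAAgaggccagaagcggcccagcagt
Capitals in the Cbs region mark 3 GC boxes (GGGCGG) and 2 CCAAT boxes on either strand, those in the Mtr region 1 GC box and 2 CCAAT boxes, and those in the Bhmt region 1 CCAAT box and 1 TATAAA. The Bhmt region held 8 CG dinucleotides, against 17 for Cbs and 14 for Mtr, with a median of 5 over 33469 upstream regions. Over the 9 genes, 7 regions held a GC box, found in 30.5% of all regions, and 7 held CCAAT, found in 34.0%. The other motifs searched were CACGTG (1 of 9 regions, and 5.59% of all), TGACNNNGC (1 of 9, and 10.1%), TATAAA (2 of 9, and 12.9%) and TGATGNAA (0 of 9, and 3.40%). A match describes the letters only.

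All values that follow are log2 processed intensities relative to the 75th percentile of the same array, so 0 is the 75th percentile and 1 unit is a doubling. Levels of different probes are not compared. Groups were compared with limma over 19992 genes and unnamed probes, with Benjamini-Hochberg adjustment and a threshold of 0.05. The arrays had 74.1% to 79.6% of spots well above background and 0 saturated spots, and their number limits the precision. CTRL replicates 1 to 3 lay in 1 row of the slide, and CTRL replicate 4 and all MDD arrays in the other. Markers of granule neurons (10 of 10) and of Purkinje cells (8 of 8) were measured, and both lists are given by count at the end.

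A pair of CTRL arrays stood apart in liver transcripts. Alb, the albumin gene of hepatocytes, was at 1.79 in CTRL replicate 2 and 1.07 in CTRL replicate 4, and between -7.04 and -5.77 on the other 5 arrays. Fgb, a fibrinogen gene, was at -0.11 and -0.64 on the same pair, and between -8.22 and -6.42 on the others. The summed linear signal of Alb, Fgb, Apoa1 and Serpina1 was 0.0605 to 0.0702 in MDD pups, against 0.0923, 4.88, 0.0904 and 3.12 in CTRL replicates 1 to 4. Mat1a, the liver-type methionine adenosyltransferase gene, was well above background on these 2 arrays alone and was not tested. Results for the methionine cycle genes are therefore also given without this pair, which leaves 2 CTRL arrays, and with so few arrays limma called 0 of 19992 genes and probes (4826 had an unadjusted p under 0.05).

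Of the 9 genes, 1 was higher and 2 were lower in MDD cerebellum at an adjusted p under 0.05, and 6 did not pass. Cbs was higher and well above background on all arrays. Mtr and Cth were lower, but 1 of 3 MDD arrays read each of them as well above background. Both were kept for testing through their CTRL arrays, the group where they were higher, so these 2 calls are not taken as support for a lower level. With normexp background correction their log2 changes were -0.20 and -0.10. Both genes are in the median that follows, and Mtr is among the genes without overlap. Over all genes and probes, 20.6% were called, 12.6% higher and 7.96% lower. The median log2 change of the 9 genes was -0.27, against -0.03 over all tested. Groups did not overlap for 6 of the 9 genes, against 36.6% of all tested. The plot of each gene by array shows these values.

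**Figure D1:**
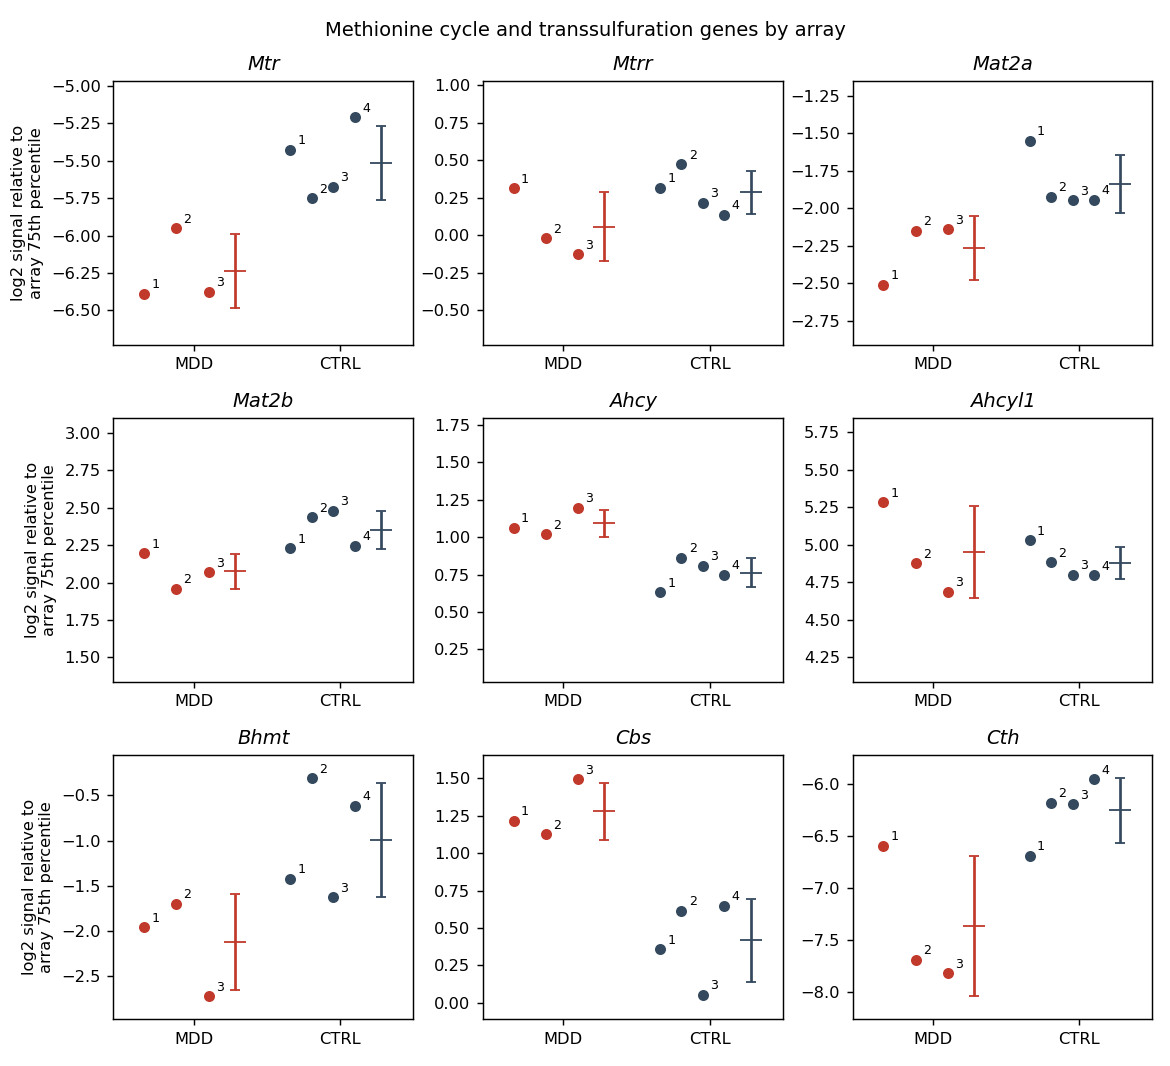
Signal of the 9 genes on each array, in log2 units relative to the array's 75th percentile. Points are single arrays with their replicate number, MDD in red and CTRL in dark grey, and bars are the mean ± SD (n = 3 and n = 4). The 3 MDD points of Cbs lie above 1.1 and the 4 CTRL points below 0.7.

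Cbs encodes cystathionine beta-synthase, which joins homocysteine to serine and commits it to transsulfuration. Its level was 1.22, 1.13 and 1.49 in MDD replicates 1 to 3, against 0.36, 0.62, 0.05 and 0.65 in CTRL replicates 1 to 4. Every MDD pup was above every CTRL pup. The means were 1.28 ± 0.19 in MDD and 0.42 ± 0.28 in CTRL (SD, n = 3 and n = 4), a 1.81-fold higher level (log2 0.86, SE 0.18, 95% interval 0.46 to 1.26, limma adjusted p = 0.0176). The call held when any 1 array was left out, with changes from 0.74 to 0.94. It was lost when the row of the slide was a block, where the change was 0.63 (adjusted p = 0.242) and came from CTRL replicate 4 against the MDD arrays of the same row. Without the pair of CTRL arrays high in liver transcripts the change was 1.07 (adjusted p = 0.120).

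Cbs is known in rodent brain from astrocytes and Bergmann glia. Of 11 measured markers of these cells, 0 fell and 1 rose, the folate enzyme gene Aldh1l1 (log2 0.50, SE 0.14, limma adjusted p = 0.0374). Over all genes and probes, 12.6% were called higher and 7.96% lower. The median change of the astrocyte and Bergmann glia list was 0.11. Its summed linear signal was 304 to 340 in MDD and 256 to 276 in CTRL. Most of this sum came from Aldoc. The changes ran from -0.20 (Aqp4) to 0.50, with 6 of 11 above 0. Of the 10 that did not pass, Aldoc had a log2 change of 0.37 (adjusted p = 0.0545), S100b 0.44 (adjusted p = 0.0838), Gfap 0.41 (adjusted p = 0.160) and Slc1a3 -0.06 (adjusted p = 0.768). The part of astrocyte RNA in the result for Cbs was not tested. In bulk tissue, a change in the number of cells of a type cannot be told apart from a change in RNA per cell.

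Cth encodes cystathionine gamma-lyase, which releases cysteine from cystathionine. Its level was -6.59, -7.69 and -7.81 in MDD replicates 1 to 3, against -6.69, -6.18, -6.19 and -5.95 in CTRL replicates 1 to 4. The groups overlapped, since MDD replicate 1 was above CTRL replicate 1. Both readings were under the lowest spot scored well above background on their own arrays, at -6.30 and -5.76. Only 1 of 3 MDD arrays and 3 of 4 CTRL arrays read the Cth probe as well above background, in 50% or more of its spots. The MDD values are thus at the limit of detection. The mean was -7.36 ± 0.67 in MDD and -6.25 ± 0.31 in CTRL, a log2 change of -1.11 (SE 0.31, limma adjusted p = 0.0378). With normexp background correction the change was -0.10 (adjusted p = 0.738), and in the authors' deposited table it was -0.20 (adjusted p = 0.187). The call was lost when CTRL replicate 2, 3 or 4 or MDD replicate 2 or 3 was left out (adjusted p = 0.0799, 0.0812, 0.0947, 0.0828 and 0.109).

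Mtr encodes methionine synthase, the enzyme that passes the methyl group of folate to homocysteine with vitamin B12 as cofactor. Its level was -6.39, -5.95 and -6.38 in MDD replicates 1 to 3, against -5.43, -5.75, -5.67 and -5.21 in CTRL replicates 1 to 4. Every MDD pup was below every CTRL pup, and 1 of 3 MDD arrays read the probe as well above background, against 4 of 4 CTRL arrays. The means were -6.24 ± 0.25 in MDD and -5.52 ± 0.25 in CTRL (log2 -0.72, SE 0.18, limma adjusted p = 0.0279), and no fold is given because 2 of the 3 MDD values are not well above background. The change was -0.20 with normexp (adjusted p = 0.399), -0.31 in the authors' deposited table (adjusted p = 0.0483) and -0.57 with quantile normalization (adjusted p = 0.0628). It lost the call without MDD replicate 1 or 3 or CTRL replicate 1, 3 or 4 (adjusted p = 0.0726, 0.0714, 0.0660, 0.0543 and 0.0729).

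The difference between Cbs and Mtr on one array does not depend on how arrays are scaled to each other. Cbs minus Mtr was 7.61, 7.08 and 7.87 in MDD replicates 1 to 3, against 5.78, 6.37, 5.73 and 5.86 in CTRL replicates 1 to 4. All MDD values were above all CTRL values, and the difference was higher by 1.58 in MDD. This separation follows from Cbs reading higher and Mtr reading lower in every MDD pup than in every CTRL pup. The two-sided exact permutation p (0.0286, and 0.0857 adjusted over 3 such pairs) was thus fixed at the smallest that the 35 splits allow. That p adds nothing to the results of the single genes. The size of the difference rests on Mtr, kept through its CTRL arrays and not well above background in 2 of the 3 MDD pups. The difference is thus not taken as support for a lower level of Mtr. It was 1.08 with normexp and 1.13 in the authors' deposited table.

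Mtrr encodes methionine synthase reductase, which restores the active form of the vitamin B12 cofactor of Mtr. Its brighter probe was at 0.31, -0.02 and -0.13 in MDD replicates 1 to 3, against 0.32, 0.47, 0.22 and 0.14 in CTRL replicates 1 to 4. The groups overlapped through MDD replicate 1, and the log2 change of -0.23 did not pass (95% interval -0.57 to 0.11, limma adjusted p = 0.279). The second probe of Mtrr gave -0.29 (SE 0.13), with groups that did not overlap and an adjusted p of 0.124 over 22255 single probes.

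Bhmt encodes betaine-homocysteine methyltransferase, the choline-derived route of remethylation, whose main sites are liver and kidney. Its level was -1.96, -1.70 and -2.72 in MDD replicates 1 to 3, against -1.42, -0.31, -1.62 and -0.61 in CTRL replicates 1 to 4. The groups did not overlap, and MDD replicate 2 and CTRL replicate 3 lay close together. The mean was -2.12 ± 0.53 in MDD and -0.99 ± 0.63 in CTRL, a log2 change of -1.13 that did not pass (SE 0.36, limma adjusted p = 0.0581). The 2 highest values were those of CTRL replicates 2 and 4, the arrays high in Alb and Fgb. Without this pair the change was -0.60 (SE 0.31, adjusted p = 0.274). Normexp, a filter on all 7 arrays, a variance prior with trend, and leaving out MDD replicate 2 each took the adjusted p of the full set under 0.05 (0.0415, 0.0437, 0.0400 and 0.0491). The part of liver RNA in the level of Bhmt was not tested.

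**Figure D2:**
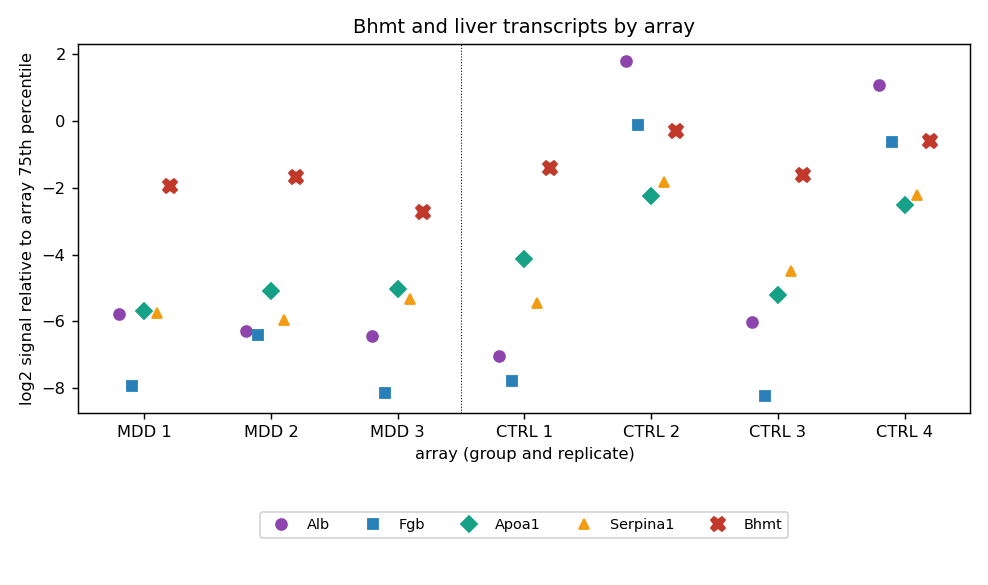
Level of Bhmt and 4 liver transcripts (Alb, Fgb, Apoa1, Serpina1) on each array, in log2 units relative to the array's 75th percentile, MDD arrays left and CTRL arrays right of the dotted line. On CTRL replicates 2 and 4, Alb is at 1.79 and 1.07 and Bhmt at -0.31 and -0.61, the highest values of both genes.

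Mat2a encodes the catalytic subunit of the methionine adenosyltransferase found outside liver, the enzyme that makes S-adenosylmethionine. Its brighter probe was at -2.51, -2.15 and -2.14 in MDD replicates 1 to 3, against -1.55, -1.92, -1.95 and -1.94 in CTRL replicates 1 to 4. All MDD values were below all CTRL values, with CTRL replicate 1 apart from the other CTRL arrays. The log2 change was -0.43 (SE 0.16, 95% interval -0.78 to -0.07) and did not pass (limma adjusted p = 0.0832). The second Mat2a probe was at -2.71, -2.69 and -2.54 in MDD, against -2.22, -2.24, -2.12 and -1.97 in CTRL, again without overlap. It was 1.42-fold lower in MDD (log2 -0.51, SE 0.12, limma adjusted p = 0.0265 over single probes, of which 20.2% were called and 8.03% were called lower). The mean of both probes, which holds this second probe, was lower by limma (log2 -0.47, adjusted p = 0.0311). Leaving out any 1 array gave changes from -0.49 to -0.30 for the brighter probe. Its change was -0.46 with the replicate block (limma adjusted p = 0.184) and -0.32 with slide row as a block. Without the pair of CTRL arrays high in liver transcripts its change was -0.52 (limma adjusted p = 0.208).

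Mat2b encodes the regulatory subunit that binds Mat2a protein. Its brighter probe was at 2.20, 1.96 and 2.07 in MDD replicates 1 to 3, against 2.23, 2.44, 2.48 and 2.25 in CTRL replicates 1 to 4. Groups did not overlap by a small margin, and the change of -0.27 did not pass (95% interval -0.56 to 0.01, limma adjusted p = 0.143). It passed with quantile normalization (-0.48, adjusted p = 0.0299), in the authors' deposited table (-0.36, adjusted p = 0.0361) and with trends of length and signal removed (-0.43, adjusted p = 0.0422). The second probe gave -0.16 (SE 0.12) with overlapping groups. Mat2b minus Mat2a, on one array, differed by 0.15 between MDD and CTRL (exact permutation p = 0.514).

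Ahcy encodes S-adenosylhomocysteine hydrolase, which clears the product that inhibits methyltransferases. Its level was 1.06, 1.02 and 1.19 in MDD replicates 1 to 3, against 0.63, 0.86, 0.81 and 0.75 in CTRL replicates 1 to 4. Every MDD pup was above every CTRL pup, and the spread was narrow in both groups. The log2 change was 0.33 (SE 0.12, 95% interval 0.06 to 0.59) and did not pass (limma adjusted p = 0.0756), except with a variance prior with trend (adjusted p = 0.0489).

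Ahcyl1, also called IRBIT, encodes a relative of Ahcy that binds the inositol trisphosphate receptor, an abundant calcium channel of Purkinje cells. Its brighter probe was at 5.29, 4.88 and 4.69 in MDD replicates 1 to 3, against 5.03, 4.88, 4.80 and 4.80 in CTRL replicates 1 to 4. MDD replicates lay on both sides of the CTRL range, and the change of 0.07 did not pass (95% interval -0.29 to 0.44, adjusted p = 0.763). Its sign turned to -0.45 with quantile normalization and to -0.42 in the authors' deposited table. The second probe gave 0.12 (SE 0.13). Ahcyl1 minus Ahcy, on one array, differed by -0.26 between MDD and CTRL (exact permutation p = 0.343).

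**Figure D3:**
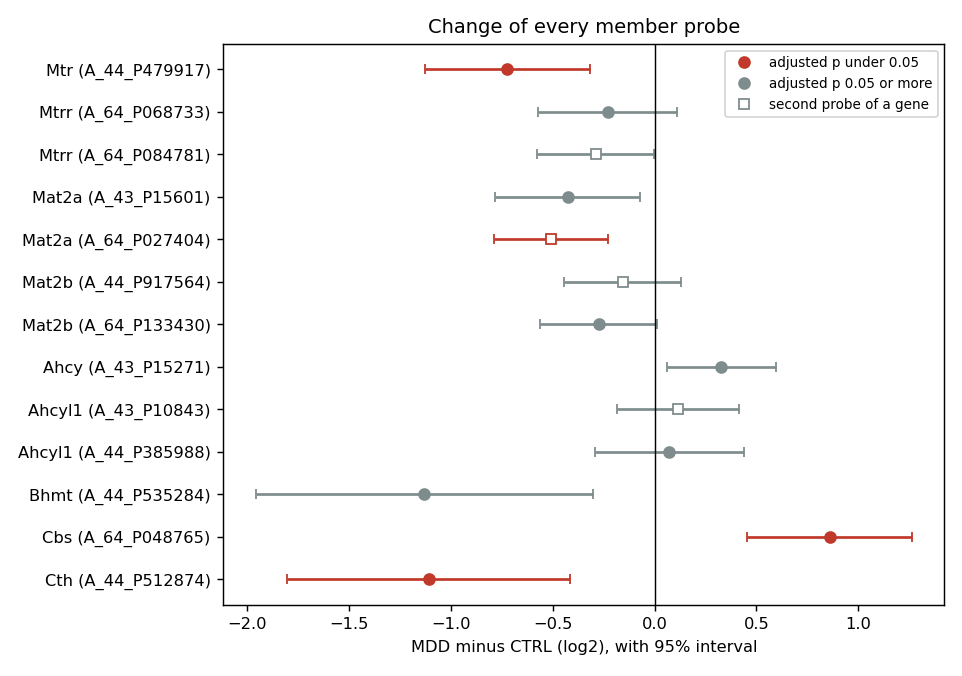
Log2 change, MDD minus CTRL, of each of the 13 probes with its 95% interval from limma. Filled circles stand for the gene and open squares are second probes. Red marks an adjusted p under 0.05 over all single probes. Both probes of Mtrr, Mat2a, Mat2b and Ahcyl1 have the same sign.

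Change and gene length were related across the array, so each gene was also read against that trend. Across 11961 named genes the log2 change had a Spearman's rho of -0.40 with genomic length and 0.23 with mean signal, as descriptions, since genes are not independent. Mtr is the longest of the 9 genes and Mat2a the shortest. With both trends removed from each array, Cbs had a change of 0.84 (adjusted p = 0.0304), Mtr -0.51 (adjusted p = 0.0911) and Cth -0.97 (adjusted p = 0.0961). Mat2a then had -0.58 (adjusted p = 0.0395) and Mat2b -0.43 (adjusted p = 0.0422). By limma the others did not pass, with Ahcy at 0.21 (adjusted p = 0.185), Mtrr at -0.19 (adjusted p = 0.375), Bhmt at -1.14 (adjusted p = 0.0832) and Ahcyl1 at -0.09 (adjusted p = 0.683).

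**Figure D4:**
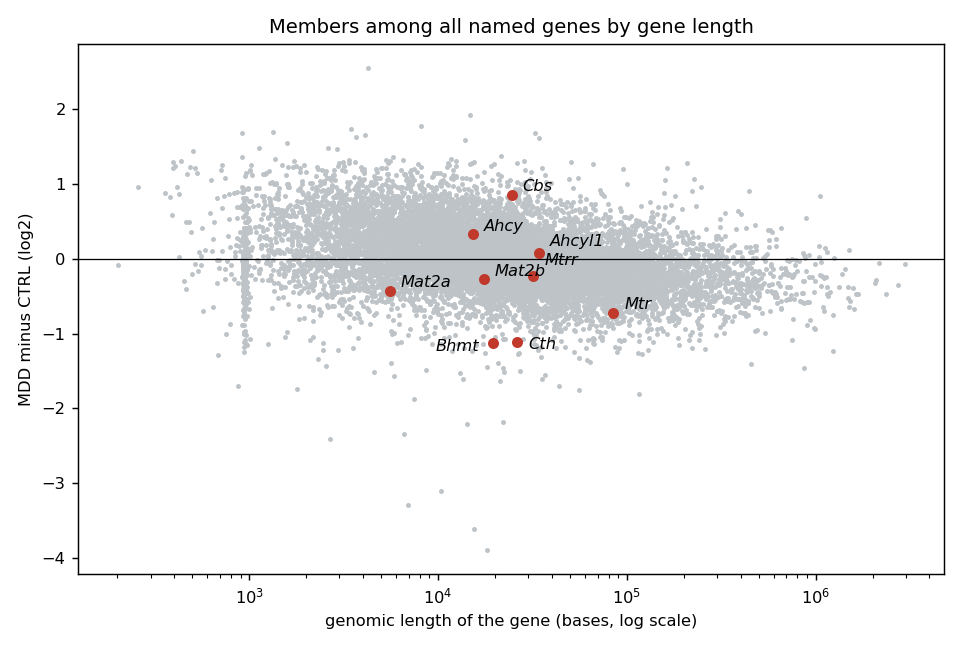
Log2 change, MDD minus CTRL, of 11961 named genes (grey) against genomic length on a log scale, with the 9 methionine cycle and transsulfuration genes in red. Short genes tend to lie above 0 and long genes below, and Mat2a lies below 0 among short genes.

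Other genes of the pathway were counted in 5 lists, in which 57 genes were measured, 10 higher and 2 lower in MDD, 1 of these 2 (Hnmt) kept through its CTRL arrays. That is 12 of 57, beside 20.6% of all genes and probes (12.6% higher and 7.96% lower). By limma 0 of the 57 passed without the pair of CTRL arrays high in liver transcripts. Leaving out 1 array gave 1 to 15 passing genes, and leaving out MDD replicate 3 gave 4. MDD replicate 3, the highest MDD array for several genes below, had the lowest correlations with the CTRL arrays (0.968 to 0.977).

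Cysteine and glutathione genes, downstream of Cbs and Cth, had 3 of 14 members higher and 0 lower, with a median log2 change of 0.12. All genes and probes had 12.6% higher and 7.96% lower, with a median of -0.03. Mpst, a sulfurtransferase that makes hydrogen sulfide, was at -0.82, -1.29 and -1.10 in MDD, against -1.90, -1.98, -1.90 and -2.03 in CTRL (log2 0.88, SE 0.14, limma adjusted p = 0.0104). Its groups lay well apart. Ethe1, the mitochondrial persulfide dioxygenase, had a 1.55-fold higher level (log2 0.63, SE 0.18, limma adjusted p = 0.0396). Its MDD replicate 3 was highest, at -0.71 against -1.24 and -1.44 in MDD replicates 1 and 2. Ggt1, which cleaves glutathione outside cells, was also higher (log2 0.61, SE 0.15, limma adjusted p = 0.0302). Only 3 of 4 CTRL arrays read the Ggt1 probe as well above background, so the size of its change is near the limit of detection.

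In the list of methyl donor supply, 2 of 14 members were higher and 1 lower, beside 12.6% and 7.96% over all tested. The median was 0.18, against -0.03 over all tested. Cd320, the cell surface receptor for vitamin B12 bound to transcobalamin, was at 0.20, 0.35 and 1.38 in MDD, against -0.48, -0.30, -0.18 and -0.41 in CTRL (log2 0.99, SE 0.27, limma adjusted p = 0.0364). Lmbrd1, which takes part in the exit of vitamin B12 from lysosomes, had a level 1.41-fold lower in MDD (log2 -0.50, SE 0.12, adjusted p = 0.0282). Slc46a1, the proton-coupled folate transporter, had a level 1.49-fold higher in MDD (log2 0.58, SE 0.17, adjusted p = 0.0451).

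Enzymes that spend S-adenosylmethionine had 4 of 14 members higher and 1 lower, beside 12.6% and 7.96% over all tested. Their median was 0.29, against -0.03 over all tested. Nnmt, which methylates nicotinamide, had a level 2.23-fold higher in MDD (log2 1.16, SE 0.24, limma adjusted p = 0.0182). MDD replicate 3 was highest for Nnmt, at -1.80 against -2.80 and -2.76 in MDD replicates 1 and 2. The same array was highest among MDD for Gamt, at 2.86 against 2.12 and 1.95. Gamt, the last enzyme of creatine synthesis, was 1.78-fold, the arginine methyltransferase gene Prmt1 1.77-fold and Icmt 1.41-fold higher (adjusted p = 0.0375, 0.0347 and 0.0338). The lower member, named after its value was seen, was Hnmt, which methylates histamine, at -7.43, -6.04 and -6.37 in MDD, against -5.38, -5.83, -5.70 and -5.26 in CTRL (adjusted p = 0.0449). Of the 3 MDD arrays, 1 read its probe as well above background, and it was kept through the CTRL arrays, so no size of change is given.

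Of 9 measured genes of methionine salvage and polyamine synthesis, 1 was higher and 0 were lower, beside 12.6% and 7.96% over all tested. Their median was 0.12, against -0.03 over all tested. The higher one was Mri1 of the salvage route (log2 0.66, SE 0.20, limma adjusted p = 0.0492). Its MDD replicate 3 was highest, at 1.97 against 1.47 and 1.16 in MDD replicates 1 and 2. Of 6 other methionine cycle genes 0 passed by limma (0 had an unadjusted p under 0.05), with a median of -0.19. Gnmt, which methylates glycine and is abundant in liver, had the smallest p of these (log2 0.64, SE 0.29, adjusted p = 0.134), and MDD replicate 3 was high at 1.36.

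Marker lists of other cells gave these counts of higher and lower members, beside 12.6% higher and 7.96% lower over all genes and probes. Microglia had 6 and 1 of 9, granule neurons 0 and 4 of 10, Purkinje cells 0 and 2 of 8, oligodendrocytes 0 and 1 of 9, and vessels 1 and 0 of 7. Choroid plexus (5 measured), liver (5) and erythroid cells (4) had 0 and 0 by limma, with 2, 3 and 0 members at an unadjusted p under 0.05. The microglial summed signal was 12.95 to 17.98 in MDD and 9.13 to 9.80 in CTRL, and its part in the results was not tested.

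The genes whose levels followed a called member most closely over the 7 arrays were named as a description. For Cbs they were Ska2 (Pearson's r 0.994), Ilvbl (0.989) and Actg2 (0.987), for Mtr they were Parp2 (0.996), Riox2 (0.993) and Lmntd2 (0.992), and for Cth they were Actr3 (0.982), Cdc14a (0.982) and Cyp20a1 (0.976). Each was the closest among 11960 genes, the top of a long ranking.

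**Figure D5:**
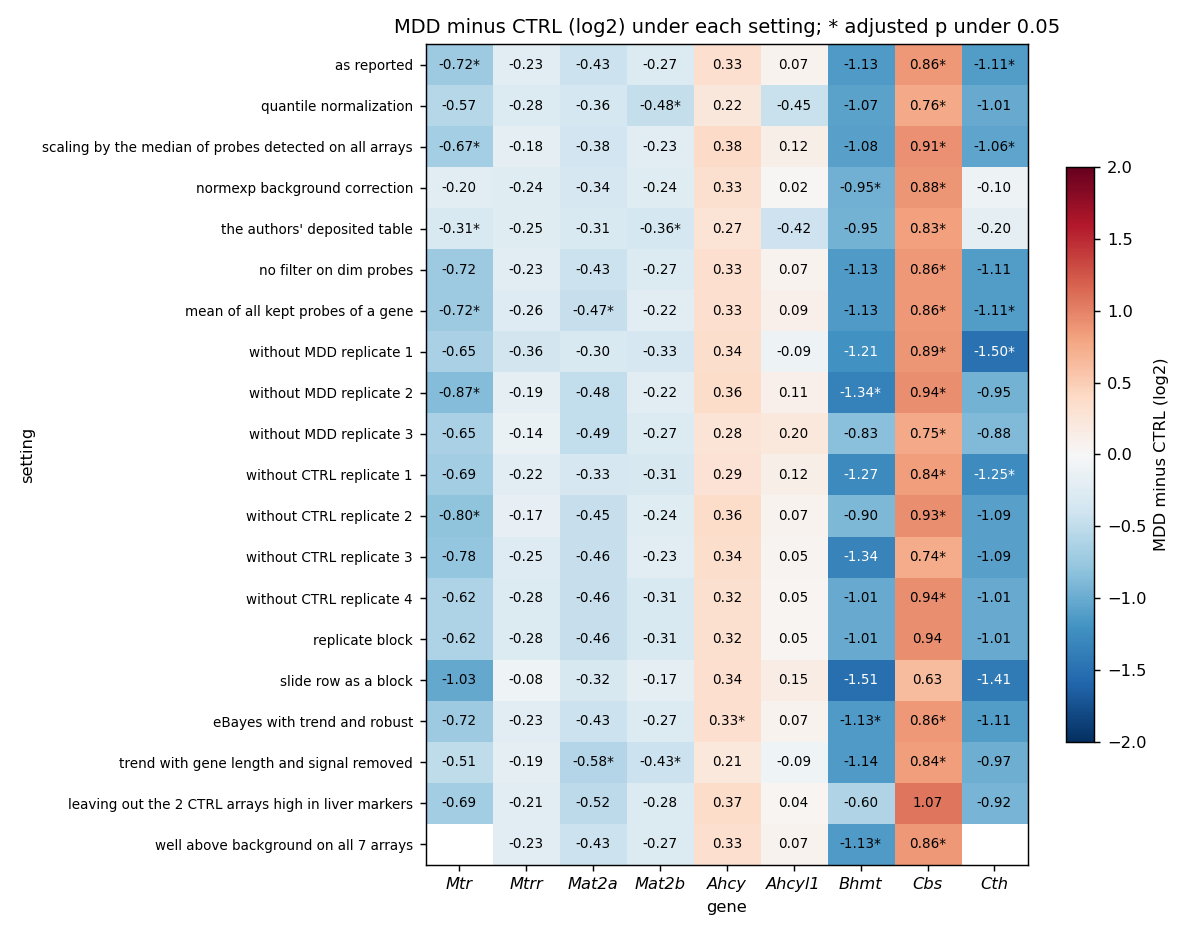
Log2 change, MDD minus CTRL, of the 9 genes (columns) under the reported setting and each alternative (rows). Colour and number give the change, a star marks an adjusted p under 0.05, and blank cells are genes not kept. Cbs is above 0 in every row and lacks a star in 3 of them.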

How the data were processed

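The 7 scanner tables hold linear spot intensities, and per the file headers the software was Feature Extraction, version 10.7.3.1. Their processed signal is background-subtracted and not normalized between arrays. Flags scored by the scanner software are deposited beside it. A further deposited table holds the authors' normalized intensities, by a method not given in the sources used here, and its columns show the group only. All arrays share 1 slide and 1 scan time, and the row on the slide was read from the array position. Row 1 held CTRL replicates 1 to 3, and row 2 held CTRL replicate 4 and MDD replicates 1 to 3. Diet group and slide row are thus nearly confounded, and their effects can hardly be told apart.

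From each processed signal the log2 was taken, and the 75th percentile of its array was subtracted. Outlier-flagged spots were left out, spots of a probe were averaged, and a probe was kept when 3 or more of 7 arrays read it as well above background (22255 of 30367). An array was counted when 50% or more of the probe's spots were well above background. Accessions were matched to RefSeq symbols (GRCr8). The brightest kept probe stood for a gene, which left 11961 named genes and 8031 unnamed probes. The comparison of MDD with CTRL used R 4.3.3 and limma 3.58.1, with its default prior and 5 residual degrees of freedom. The code was tested on simulated data. Normexp used median spot signals, because mean spot signals are not among the columns, with an offset of 50.

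The 9 members, the lists and the alternatives were chosen with earlier results of these data known. Named genes were all members, up to 4 passing genes per list by smallest p (or the 1 smallest), and the 3 genes most correlated with each passing member. Leaving out the pair of CTRL arrays was chosen after seeing their liver transcripts.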

Additional observations from a re-analysis of the deposited data

Results flagged for a closer look

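In 44 sets of 4 CTRL values examined, 3 held a value far from the others. Chance gives about 1 in 20, so this count is near the chance rate, and some sets reuse the same values. All 3 came from CTRL replicate 1. The brighter Mat2a probe was at -1.55 there, against -1.95 to -1.92 on the other CTRL arrays. Ggt1 was at -5.80, against -6.27 to -6.21. Ahcyl1 minus Ahcy was 4.40, against 3.99 to 4.05. Without this array the change of Mat2a was -0.33 (limma adjusted p = 0.168).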

How the results depend on the processing

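Cbs stayed above 0 under all 19 alternatives run (0.63 to 1.07) and kept its call in 16. It lost it with the replicate block (0.94, adjusted p = 0.0679), with slide row as a block (0.63) and without the 2 CTRL arrays high in liver markers (1.07). Leaving out 1 array gave 0.74 to 0.94 for Cbs, -0.87 to -0.62 for Mtr and -1.50 to -0.88 for Cth. Mtr lost its call in 13 of 18: quantile (-0.57), normexp (-0.20), no filter (-0.72), replicate block (-0.62), slide row (-1.03), variance prior with trend (-0.72), length and signal trends removed (-0.51), without the 2 CTRL arrays (-0.69) and 5 single arrays. Cth lost it in 14 of 18, with -1.01, -0.10, -1.11, -1.01, -1.41, -1.11, -0.97 and -0.92 in the same order, -0.20 in the authors' table, and 5 single arrays. With a filter on all 7 arrays neither was tested. Ahcyl1 turned to -0.45 (quantile), -0.42 (authors' table), -0.0905 (trends removed) and -0.0949 (without MDD replicate 1), and ran from -0.0949 to 0.204 with 1 array left out. The cause of these shifts was not tested.

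Genes and probes called (4118) came to 1012 to 5276 with 1 array left out, 1597 with no filter, 1345 of 11961 with trends removed, 1 with slide row, and 0 by limma with the replicate block (6217 at an unadjusted p under 0.05) and without the 2 CTRL arrays (4826). Higher calls were 61.3% of all, and 72.6% with normexp. Members called (3) came to 1 to 3 with 1 array left out, 1 with no filter, and 0 with the replicate block, slide row and without the 2 CTRL arrays. Other pathway genes called (12) came to 1 to 15 with 1 array left out, 2 with no filter, 6 with trends removed and 0 with those same 3. Same-numbered arrays of the groups correlated at 0.09, -0.18 and 0.22 in their deviations from group means, so the numbers were not read as pairs. Cbs minus Mtr ran from 1.41 to 1.80 with 1 array left out, where no exact p under 0.0667 can be had, and was 1.08 with normexp and 1.13 in the authors' table, Ahcyl1 minus Ahcy from -0.44 to -0.07, and Mat2b minus Mat2a from -0.0308 to 0.269. Ahcyl1 minus Ahcy was -0.69 in the authors' table and -0.23 with probe means (exact permutation p = 0.0286 each), and Mat2b minus Mat2a was -0.0477 in the authors' table. Signal over background limits Mtr and Cth.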

Other observations

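Mat1a, the methionine adenosyltransferase gene typical of liver, was at -8.28, -8.00 and -7.92 in MDD replicates 1 to 3, against -7.68, -4.77, -7.71 and -5.68 in CTRL replicates 1 to 4. CTRL replicates 2 and 4 were the 2 arrays on which its probe was well above background, and they were also the highest in Alb, Fgb, Apoa1, Serpina1 and Bhmt. In the same pair, Cbs (0.62 and 0.65) was higher than on the other CTRL arrays (0.36 and 0.05). Ttr, which choroid plexus also makes, was at 7.65, 6.82 and 8.08 in MDD, against 6.59, 7.05, 6.70 and 6.85 in CTRL, where replicates 2 and 4 were again the 2 highest, by a small margin. Bhmt2, a neighbour of Bhmt in sequence and function, ranged from -5.71 to -4.98 in MDD and from -5.62 to -5.27 in CTRL.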
